A study of Mus musculus with 3 samples.

Results

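The CC chemokine ligands described here are 10 genes, Ccl2 to Ccl9, Ccl12 and Ccl17, found by their symbols among the 14811 genes of the table. All 10 were listed, and 9 of them reached a mean normalised read count of 10, the minimum used below. RNA was sequenced from macrophages that had been sorted by flow cytometry out of the kidneys of 3 C57BL/6J mice, 1 library a mouse. Each mouse was injected intravenously with phosphate-buffered saline (PBS) 1 h before the kidneys were taken and digested with DNase, collagenase D and dispase. These are the only samples, so every library carries the injection, the digestion and the sort, and no untreated or undigested cells stand beside them. The labels number the libraries by animal; for the surface markers of the sort and the age and sex of the mice, no entry was found in them. Values are normalised read counts, that is, reads per gene divided by a size factor of the library.

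CC chemokines are small secreted proteins whose first 2 cysteines lie next to each other. They bind G protein-coupled receptors on leukocytes and draw these cells along a gradient of the ligand. Tissue macrophages are a well-known source of them. Some members are made at rest, while others are induced within hours by NF-kB signalling, by interferon or by handling of the tissue. The members fall into groups. Ccl2, Ccl7, Ccl8 and Ccl12 belong to the monocyte chemoattractant proteins, Ccl3 and Ccl4 are macrophage inflammatory proteins, Ccl5 draws T cells and monocytes, Ccl6 and Ccl9 are rodent ligands of Ccr1, and Ccl17 is a ligand of Ccr4.

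The adjacent cysteine codons from which the family takes its name were found once in the longest coding transcript of each of the 10 genes (GENCODE M21). The stretches of 60 coding bases around them are shown for 9 genes because they let members be compared, and the capitals mark the 2 cysteine codons.
Ccl2: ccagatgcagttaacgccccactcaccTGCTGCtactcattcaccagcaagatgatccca
Ccl7: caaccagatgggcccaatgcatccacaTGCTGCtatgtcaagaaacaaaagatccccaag
Ccl8: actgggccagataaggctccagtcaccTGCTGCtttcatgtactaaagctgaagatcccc
Ccl12: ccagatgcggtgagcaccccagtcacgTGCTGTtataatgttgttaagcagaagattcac
Ccl3: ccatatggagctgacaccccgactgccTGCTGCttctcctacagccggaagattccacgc
Ccl4: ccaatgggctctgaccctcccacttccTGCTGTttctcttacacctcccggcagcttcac
Ccl5: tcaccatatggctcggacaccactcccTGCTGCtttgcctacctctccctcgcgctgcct
Ccl6: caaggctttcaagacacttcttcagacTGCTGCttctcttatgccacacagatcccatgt
Ccl9: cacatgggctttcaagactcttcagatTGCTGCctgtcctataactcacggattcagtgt

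Within these stretches the highest identity was 38 of 60 bases, for Ccl2 with Ccl3 and for Ccl8 with Ccl12. Ccl2 and Ccl12, like Ccl3 and Ccl4, were identical at 37 of 60, and Ccl6 and Ccl9 at 34 of 60. Over whole transcripts, the longest stretch shared base for base by any 2 of the 10 genes was 25 bases, between Ccl6 and Ccl9, followed by 23 bases between Ccl2 and Ccl7. The sources used here do not state the read length or how reads with several matches were treated.

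The CC ligands took 0.295% ± 0.142 of the reads in the table (SD, n = 3 mice). Divided by exon length, the highest mean level was that of Ccl4, at 36306 ± 32539 normalised reads per kb (SD, n = 3), which rests on mouse 3: in mice 1 and 2 Ccl6 was the higher, at 22425 and 15472 against 20797 and 14423 for Ccl4. Ccl6 followed at 23544 ± 8686, Ccl12 at 16959 ± 4643 and Ccl3 at 11232 ± 10731 normalised reads per kb. Ccl2 (4660.3 ± 5545) and Ccl9 (4630.02 ± 732) had nearly the same mean per kb with very different spreads. Ccl8 (2453 ± 3589), Ccl5 (1533 ± 779) and Ccl7 (463 ± 797) came last per kb.

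**Figure D1:**
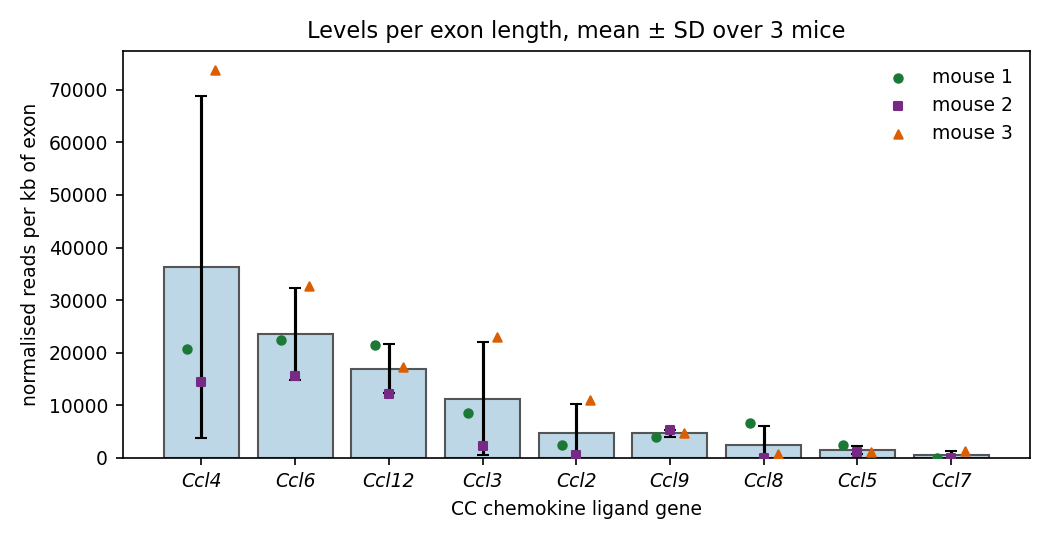
Normalised reads per kb of exon for the 9 ligands at a mean of 10 or more, ordered by their mean. Bars are means and error bars SDs over 3 mice, and points are single mice. The error bars of Ccl4 and Ccl3 reach far below the bar tops, because mouse 3 stands well above both other mice.

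Few neighbours in this order held the same order in every mouse. Only Ccl6 over Ccl12 and Ccl3 over Ccl2 did so, with log2 ratios per kb of 0.44 ± 0.25 and 1.59 ± 0.26 (SE, n = 3). Of 8 neighbouring pairs, the other 6 changed sign between mice and so did not differ beyond their spread. An exact two-sided sign-flip test over 3 mice cannot give a p below 0.25, so no pair can pass 0.05. With the longest coding transcript as the length, an alternative added after the data were seen, Ccl5 (2766 ± 1406 normalised reads per kb) stood above Ccl8, and the order was otherwise the same.

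The monocyte chemoattractant proteins spanned the widest range of behaviours. Ccl12, a mouse ligand of Ccr2, was at 11525, 6545 and 9251 normalised reads in mice 1, 2 and 3. The highest mouse was less than 2 times the lowest, and the range of log2(value + 1) over mice was 0.82. Ccl2, the principal attractant of Ccr2-bearing monocytes, was at 2765, 657 and 12488 normalised reads in mice 1, 2 and 3. Mouse 3 stood 19.0-fold above mouse 2 and 4.52-fold above mouse 1, with 95% counting intervals of 17.9 to 20.2 and 4.35 to 4.69. These intervals cover counting error only, since amplified reads without molecular identifiers are not independent molecules.

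Ccl7, another ligand of Ccr2, had more than 4 reads in a single library. It was at 2.42, 2.22 and 1108 normalised reads in mice 1, 2 and 3, which stand for 3, 4 and 1572 reads. The ratio of mouse 3 to mouse 1 was 458, with a counting interval of 156 to 2223. Ccl8, which in mice acts through Ccr8, was at 3359, 3.33 and 398 normalised reads in mice 1, 2 and 3. It was thus high in mouse 1, lower in mouse 3 and at 6 reads in mouse 2. Its order of mice differed from that of Ccl2 and Ccl7.

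In the genome, Ccl2 and Ccl7 are next to each other on chromosome 11, as are Ccl12 and Ccl8 (protein-coding genes in RefSeq, GRCm38.p6). The neighbouring pairs did not share their spread: Ccl12 was steady while Ccl8 had the widest range of all members, 9.60 on the log2(value + 1) scale. Ccl2 and Ccl7 had the same order of mice, but Ccl2 was present at 657 normalised reads or more in every mouse. Per kb, Ccl2 exceeded Ccl7 in 3 of 3 mice, with a within-library log2 ratio of 6.44 ± 1.82 (SE, n = 3).

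**Figure D2:**
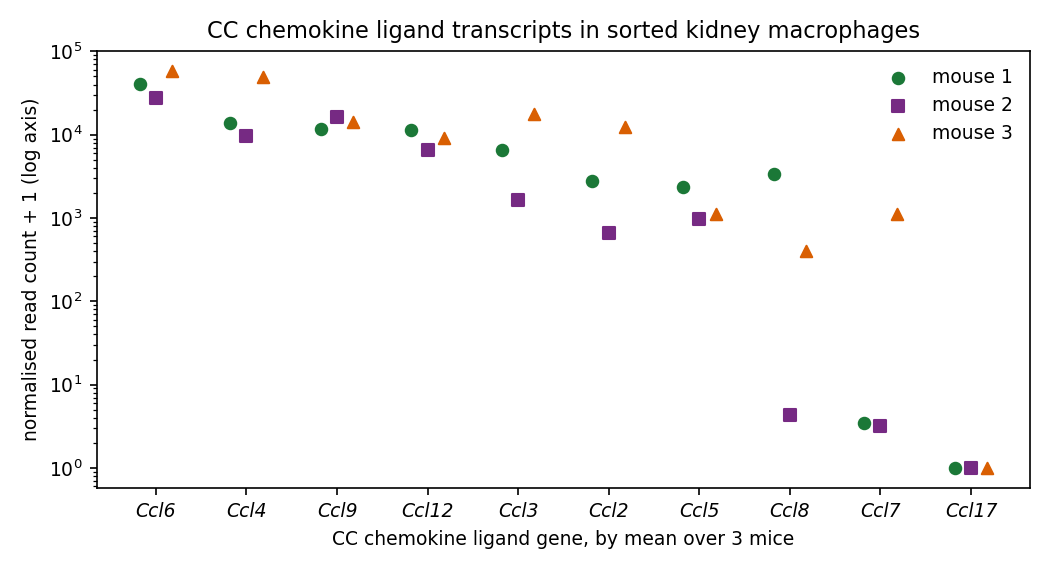
Normalised read count plus 1 on a log axis for the 10 ligands in each of 3 mice, ordered by the mean count not divided by length. The 3 mice lie close together for Ccl9 and Ccl12, mouse 3 is on top for Ccl6, Ccl4, Ccl3, Ccl2 and Ccl7, and Ccl17 is at 0 in every mouse.

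The macrophage inflammatory proteins were among the highest per kb. Ccl3 (MIP-1 alpha), a ligand of Ccr1, was at 6470.3, 1661 and 17680.1 normalised reads in mice 1, 2 and 3. Ccl4 (MIP-1 beta), an attractant of T cells and monocytes, was at 13726, 9519 and 48641 in the same mice. Both were highest in mouse 3 and lowest in mouse 2, by 10.6-fold for Ccl3 (counting interval 10.3 to 11.1) and by 5.11-fold for Ccl4 (counting interval 5.03 to 5.20). For Ccl4, mice 1 and 2 were 1.44-fold apart, so most of its range came from mouse 3. Ccl3 was spread more evenly, with mouse 1 at 3.90-fold over mouse 2 and mouse 3 at 2.73-fold over mouse 1.

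Ccl4 and Ccl3 are next to each other on chromosome 11. Per kb, Ccl4 was the higher in 3 of 3 mice, with a within-library log2 ratio of 1.90 ± 0.43 (SE, n = 3). Ccl5 (RANTES), which is also made by T and NK cells, was at 2332, 979.5 and 1103 normalised reads in mice 1, 2 and 3. It was highest in mouse 1, with mice 2 and 3 within 1.13-fold of each other, unlike Ccl3 and Ccl4. Of 14 T and NK cell markers, 4 were in the table, namely Cd4, Lck, Cd3d and Cd3e. NK cell markers such as Ncr1 and Nkg7 were not in it, so these values do not cover NK cells. Cd3e was at 0 in every mouse. The 4 together were at 2.42, 3.88 and 118 normalised reads in mice 1, 2 and 3, of which Cd4 made 1.61, 2.77 and 113.

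Ccl6 and Ccl9, the rodent ligands of Ccr1 that macrophages make without stimulation, had, together with Ccl12, the smallest ranges of the 9 members. Ccl9 was at 11786, 16232 and 14277 normalised reads in mice 1, 2 and 3, a range of 0.46 on the log2(value + 1) scale, the lowest of the 9 members. It was the only member that was highest in mouse 2. Ccl6 was at 40253, 27773 and 58761 normalised reads in mice 1, 2 and 3, a 2.12-fold spread between mice 3 and 2. Ccl6 and Ccl9 are next to each other on chromosome 11, and Ccl6 also borders Ccl3.

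Ccl17, which draws Ccr4-bearing T cells and is best known from dendritic cells, was at 0 in every mouse. With 3 reads as the upper limit that a count of 0 allows, its level was at most 2.42, 1.66 and 2.11 normalised reads in mice 1, 2 and 3. Ccl22, the other ligand of Ccr4, was at 0 as well. Of 11 dendritic cell markers, 9 were in the table and 4 reached the minimum; Ccr7 and Cd209a were at 0 in every mouse, while Mgl2, Clec9a and Batf3 were at means of 10715 ± 5891, 2071 ± 1171 and 1840 ± 594 normalised reads (SD, n = 3).

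To separate steady from varying ligands, a gene was called steady where its highest mouse was at most 2 times its lowest and varying where it was over 4 times its lowest, both on the log2(value + 1) scale. Steady by this rule were 2 of 9 members, Ccl9 and Ccl12, against 12.0% of the 11636 genes at a mean of 10 or more. Varying were 5 of 9, namely Ccl2, Ccl3, Ccl4, Ccl7 and Ccl8, against 73.4% of these genes. Ccl6 and Ccl5 lay between, with ranges of 1.08 and 1.25, and Ccl6 lay just above the limit of 1 for a steady gene; with libraries scaled to the table total both were steady. Among the varying members, Ccl4 lay closest to its limit of 2, with a range of 2.35.

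The median range was 2.35 over the 9 members, against 4.87 over all genes at a mean of 10 or more. Low genes spread more in these libraries: the median range was 2.11 over genes at a mean of 1000 or more. Of the 8 members at a mean of 1000 or more, 2 were steady and 4 varying, against 21.4% and 51.9% of 4499 genes at that level. These shares lie near the background. Set against genes within 2-fold of its own mean, Ccl9 was exceeded in range by 86.4% of them, Ccl5 by 84.3%, Ccl12 by 72.7% and Ccl6 by 36.2%. By the same measure, Ccl4 was exceeded by 5.09%, Ccl3 by 8.50% and Ccl2 by 12.8%. Ccl8 was exceeded by 1.20% and Ccl7 by 19.5%.

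**Figure D3:**
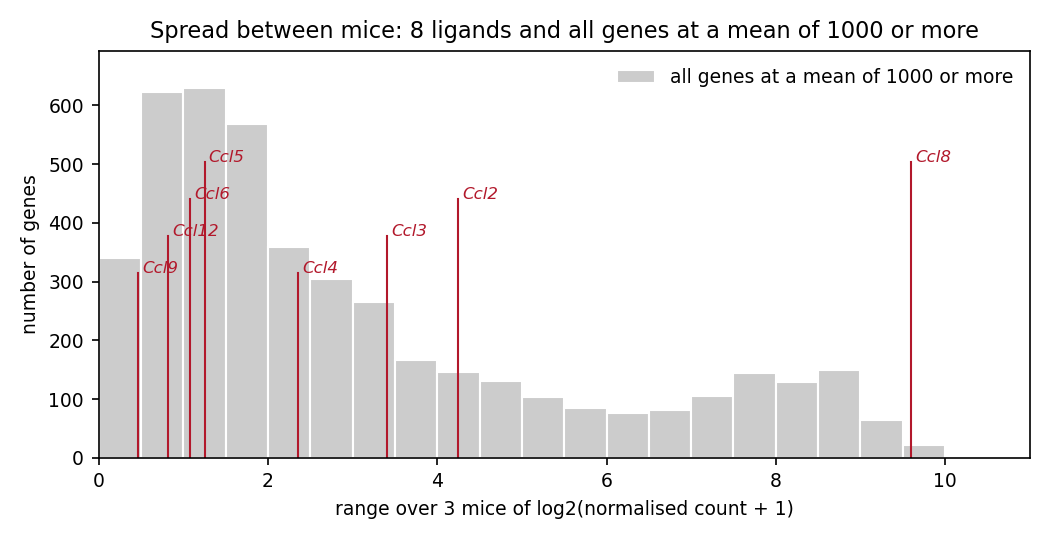
Histogram of the range over 3 mice of log2(normalised count + 1) for the 4499 genes at a mean of 1000 or more, in bins of 0.5. Vertical lines mark the 8 ligands at that level, from Ccl9 at 0.46 to Ccl8 at 9.60; their heights are for legibility only.

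The varying ligands were mostly high and low in the same libraries. Ccl2, Ccl3, Ccl4 and Ccl7, 4 of the 5, were highest in mouse 3, then mouse 1, then mouse 2. This order was picked from these same values as the commonest among the varying members. The shares of genes set beside it therefore describe it and test nothing. The order was found in 7.54% of all genes at a mean of 10 or more together with a varying call, and in 10.3% of the varying genes. Ccl6 had the same order at a smaller range, which makes 5 of 9 members, against 13.7% of all genes whatever their range. At a mean of 1000 or more it was 4 of 8 members, against 18.9% of genes. With a varying call as well it was 3 of these 8, against 7.40%. For Ccl7 the order of mice 1 and 2 rests on 3 and 4 reads, and it turned over when libraries were scaled to the table total.

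Among the varying members, Ccl2 and Ccl3 were the closest pair. Their 3 deviations from the mean of the mice were apart by a Euclidean distance of 0.64 log2 units, and 0.623% of the 8982 other genes at a mean of 100 or more lay closer to Ccl2 than Ccl3 did, and 1.07% lay closer to Ccl3 than Ccl2 did. Ccl4 lay 1.05 from Ccl3 and 1.42 from Ccl2, with a flatter profile, and 6.22% and 13.5% of genes lay closer to Ccl4 than these did. Ccl7 had the same order but lay far from these 3, at 4.45, 5.04 and 5.15 from Ccl2, Ccl3 and Ccl4. Of genes, 56.2%, 64.4% and 69.5% lay closer to Ccl2, Ccl3 and Ccl4 than Ccl7 did. Closer to Ccl7 than these 3 members were 8.67%, 12.5% and 13.4% of genes. Ccl8 lay 5.43 or more from every other varying member. With 3 libraries, a shared order is a description of these animals and no correlation can be given.

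**Figure D4:**
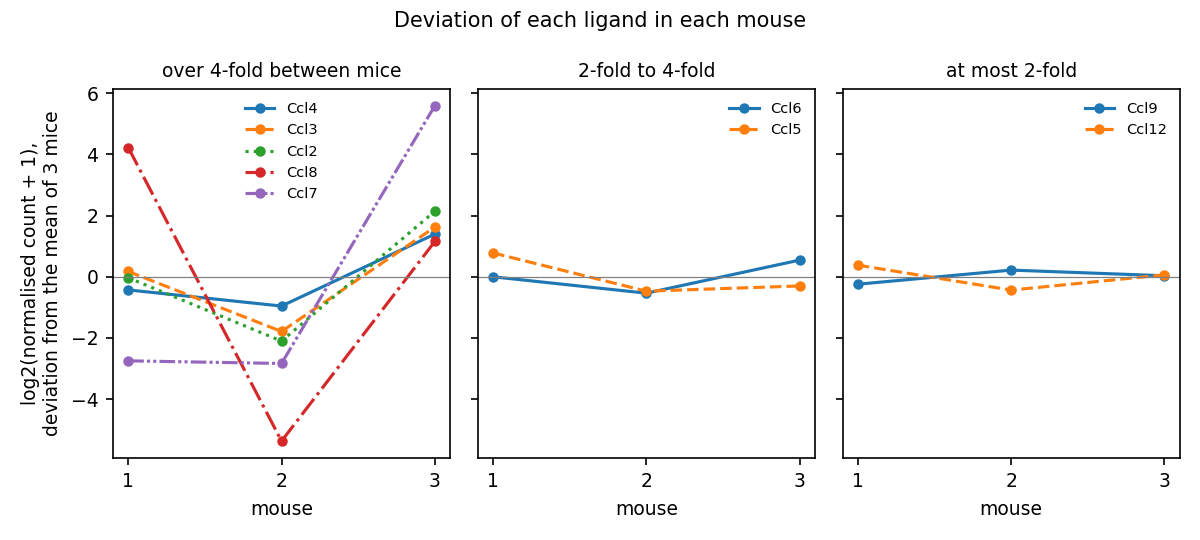
For each mouse, log2(normalised count + 1) minus the mean over the 3 mice, for varying, intermediate and steady ligands in separate panels. Lines join the values of 1 ligand and imply no order of the mice. Ccl2, Ccl3, Ccl4 and Ccl7 are lowest in mouse 2 and highest in mouse 3, with Ccl7 nearly level in mice 1 and 2. Ccl8 is highest in mouse 1, and the steady ligands stay near 0.

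Genes outside the family lay closer to each varying ligand than any other member did. Among the genes nearest to Ccl2 were Slc35e2, Slc44a1, Rnf169 and Akap11, at distances of 0.112 to 0.194 log2 units. Nearest to Ccl3 were Agpat4, Rrbp1, Thumpd1, Man1a2 and Ttf1 (0.0612 to 0.100025), and nearest to Ccl4 were Uba3, Ap1g1, Bmi1, B630005N14Rik and Vcpip1 (0.0575 to 0.0845). For Ccl7 the nearest were Gm11653, Zbtb25, Cog2, Pltp and 2700038G22Rik, of which Cog2 and Pltp were at 0 in mice 1 and 2. For Ccl8 they were Gm37060, Abhd4, Dcn, Twsg1 and Gm26603, at 0.228 to 0.559.

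As a sum, the 5 varying ligands took 0.0641%, 0.0376% and 0.225% of the reads in mice 1, 2 and 3. The steady pair took 0.0567%, 0.0724% and 0.0659%. In normalised reads, the sum of Ccl9 and Ccl12 was 23311, 22777 and 23528, a 1.03-fold spread, while the sum of the varying ligands spread 6.78-fold. The groups were formed by their range over these same mice, so a difference between them was set by the rule. Ccl9 and Ccl12 had opposite orders of mice, so their sum spread less than either gene, at 1.38-fold and 1.76-fold. Counting all members, mouse 3 had 0.459% of its reads in CC ligands, while mice 1 and 2 had 0.224% and 0.201%. In bulk libraries, fewer cells of a kind and less RNA per cell cannot be told apart.

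**Figure D5:**
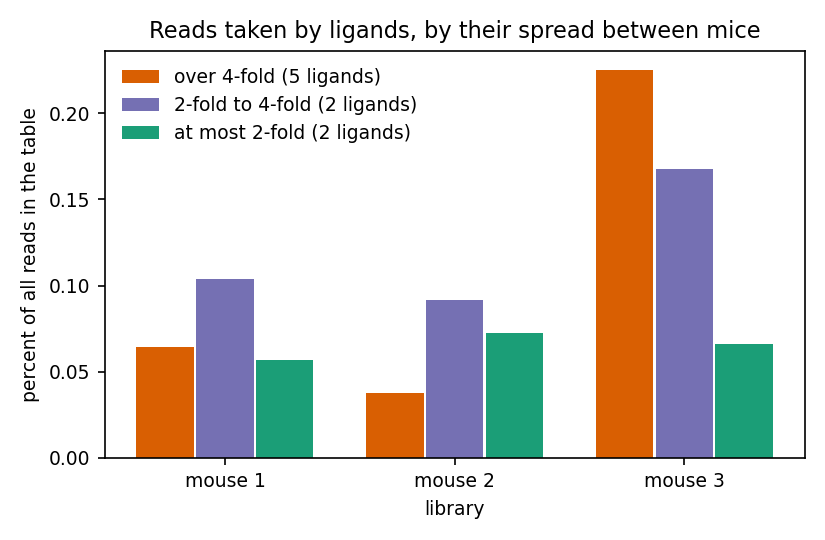
Percent of all reads in the table taken by the varying (5), intermediate (2) and steady (2) ligands in each library. The varying ligands take 0.225% in mouse 3 and 0.0376% in mouse 2, while the steady ligands stay between 0.0567% and 0.0724%.

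Several ligands rest on single libraries. Without mouse 3, Ccl2 and Ccl8 were still varying by the rule, and Ccl4 became steady with a range of 0.53. Without mouse 2, Ccl2, Ccl7 and Ccl8 were varying. A range over fewer libraries can only be equal or smaller. Ccl2 and Ccl8 were varying whichever mouse was left out. For Ccl2 the margin over the limit of 2 was small, with a range of 2.07 without mouse 3 and 2.17 without mouse 2.

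Libraries also differed in other ways. They held 50951549, 56718534 and 50646558 reads over the listed genes in mice 1, 2 and 3. Of 17 macrophage identity genes in the table, all reached the minimum. Steady were 10 and varying 1, against 12.0% and 73.4% of all genes at that minimum. At a mean of 1000 or more, these shares of all genes were 21.4% and 51.9%. Together the 17 genes took 3.49% to 3.77% of the reads. Kidney tubule markers, all 10 of them in the table, took 0.0970%, 0.616% and 0.0438% of the reads in mice 1, 2 and 3. They were led by Kap, at 35490.3, 172061 and 13511 normalised reads, and 8 of the 9 at the minimum had the order mouse 2, mouse 1, mouse 3, against 17.1% of all genes. This order is the reverse of that of Ccl2, Ccl3, Ccl4 and Ccl7, and its part in their values was not tested. Every one of the 5 varying ligands was lowest in mouse 2, as were 8 of 9 members, against 29.9% of all genes at a mean of 10 or more and 42.6% at a mean of 1000 or more. For Ccl7 this is not settled, since mice 1 and 2 had 3 and 4 reads. Of the 17 macrophage identity genes, 11 were also lowest in mouse 2. The order mouse 3, mouse 1, mouse 2 was found in 5 of the 17. It was found in 13.7% of all genes at a mean of 10 or more and in 18.9% at a mean of 1000 or more.

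Lists of genes known to be induced by NF-kB, by tissue handling or by interferon were set beside the ligands. Of 22 NF-kB and TNF response genes, 18 reached the minimum. Steady were 2 and varying 14, against 12.0% and 73.4% of all genes. Of the varying ones, 0 had the order mouse 3, mouse 1, mouse 2, against 10.3% of all varying genes. Whatever the range, 1 of the 18 had it, against 13.7% of all genes. Lowest in mouse 2 were 8 of the 18, against 29.9% of all genes. Cd83, a surface marker of activated antigen-presenting cells and the highest of the list, was at 27739, 5212 and 25355 normalised reads in mice 1, 2 and 3. Il1b was steady at 17318 ± 2409 normalised reads (SD, n = 3). Of 26 immediate early and tissue dissociation genes, 22 reached the minimum. Varying were 16, against 73.4% of all genes. The order mouse 3, mouse 1, mouse 2 was found in 2 of these, against 10.3% of all varying genes. Whatever the range, 5 of the 22 had it, against 13.7% of all genes. One of them was Zfp36, which encodes an mRNA decay factor, at 4172, 772.5 and 9849 normalised reads in mice 1, 2 and 3. Most of the list had other orders, such as Dusp1 at 6506, 1426 and 1896 normalised reads in the same mice. Of 18 interferon-stimulated genes, 14 were varying, against 73.4% of all genes. Whatever the range, 1 of the 18 had the order mouse 3, mouse 1, mouse 2, against 13.7% of all genes. Lowest in mouse 2 were 9 of the 22 immediate early genes and 5 of the 18 interferon-stimulated genes, against 29.9% of all genes.

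Markers of other leukocytes differed from list to list. Monocyte markers took 0.0310% to 0.0755% of the reads, most of it Ccr2, and the next highest went different ways: Ly6c2 was at 1069, 2.77 and 0.705 normalised reads and Spn at 302, 332 and 4336 in mice 1, 2 and 3. Of 11 neutrophil markers 2 were in the table, with S100a9 at 0 in every mouse and Csf3r at 19.4 or less. Of 7 B cell markers 3 were in the table, with Cd22 at 0 and Ighm at 20532, 5363 and 3283 normalised reads in mice 1, 2 and 3. Cd79b went the other way, at 227, 3940 and 6359 normalised reads. Of 7 mast cell and basophil markers 2 were in the table, with Ms4a2 at 0 and Kit at 35.5 or less. Endothelial and stromal markers took 0.00149%, 0.00129% and 0.00397% of the reads in mice 1, 2 and 3, the order of Ccl2, Ccl3, Ccl4 and Ccl7, led by Kdr at 453, 7.77 and 1345 normalised reads. The part of these cells in the ligand values was not tested.

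Receptors for some of these ligands were present. Ccr2 was at 29145, 8939 and 12215 normalised reads and Ccr1 at 528, 1564 and 426 in mice 1, 2 and 3. Of 5 genes of the CC receptor list in the table, 4 reached the minimum and 1, Ccrl2, was varying, against 73.4% of all genes at the minimum. Of 13 CC ligands outside the 10 described, 6 were in the table and 3 reached the minimum. These 3, Ccl25, Ccl19 and Ccl27a, were all varying, against the same 73.4%, each with its own order of mice. Ccl25 was at 1.61, 377 and 1785 normalised reads in mice 1, 2 and 3.

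Promoter sequences were at hand for 6 of the 10 members, Ccl3, Ccl6, Ccl8, Ccl9, Ccl12 and Ccl17. The 250 bases before the start of 3 of them are shown (RefSeq, GRCm38.p6), because Ccl12 and Ccl8 are neighbours that differ most in spread and Ccl3 is one of the ligands that varied together. Capitals mark TATAAA on either strand, found in 12.4% of 32851 promoters of the same length.
Ccl12, chr11:82101595-82101844, plus strand: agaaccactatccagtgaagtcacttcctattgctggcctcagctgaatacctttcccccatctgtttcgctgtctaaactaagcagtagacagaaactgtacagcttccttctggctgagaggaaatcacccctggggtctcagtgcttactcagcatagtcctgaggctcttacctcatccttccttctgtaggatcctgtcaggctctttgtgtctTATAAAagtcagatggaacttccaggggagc
Ccl8, chr11:82114935-82115184, plus strand: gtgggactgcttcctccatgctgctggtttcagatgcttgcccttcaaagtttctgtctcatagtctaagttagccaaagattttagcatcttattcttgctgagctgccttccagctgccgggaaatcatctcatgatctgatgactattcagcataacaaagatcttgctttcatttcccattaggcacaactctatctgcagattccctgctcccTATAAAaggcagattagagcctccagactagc
Ccl3, chr11:83649379-83649628, minus strand: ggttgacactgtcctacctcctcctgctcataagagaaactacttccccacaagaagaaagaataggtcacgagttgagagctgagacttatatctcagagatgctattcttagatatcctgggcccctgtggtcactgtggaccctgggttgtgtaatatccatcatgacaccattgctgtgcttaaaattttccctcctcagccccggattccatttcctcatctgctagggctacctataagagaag

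The TATAAA match began 31 bases before the start in Ccl12 and 32 bases before it in Ccl8, so the steady and the varying neighbour both held it. Ccl3 had none in this window. The shortened kappaB motif GGGANTT, found in 14.4% of promoters, matched in none of the 6 windows on either strand. The AP-1 motif TGANTCA, found in 6.75%, matched in Ccl9, 53 bases before the start. A match or its absence describes only these letters in this window.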

How the data were processed

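The deposited table holds a normalised signal per gene, made by the authors with HTSeq 0.5.4 and DESeq 1.18.0 on build mm9, per the submitters' processing notes (aligner, annotation and row filter: not given in the sources used here). Per the labels' protocols, cDNA was amplified with SMART-seq V4. The lowest value was exactly 1 in each library, so 1 was subtracted; 100% of values were then whole multiples of 1 step per library (tolerance 0.05 of a step), and 1 read was worth 0.806, 0.555 and 0.705 normalised reads in mice 1, 2 and 3. The libraries differed in their total reads, and over the 3 libraries jointly 98.0% of 12562 genes differed by more than Poisson noise. This joint measure does not compare the libraries in pairs.

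With 1 group there was no comparison of conditions, and no test across genes was run. Genes at a mean of 10 or more were called by their range of log2(value + 1). Exon lengths (GENCODE M21, GRCm38, by gene ID) gave levels per kb for 14759 genes. The members, the lists and the rule for naming genes (all members, the 3 highest of each list, the 5 nearest in profile at a mean of 100 or more, and set receptors) were chosen with earlier results of these data known; other genes, such as markers at 0, were named after their values were seen. Some genes that the rule names are not reported here. Work was done in Python 3.11.15 with pandas 2.3.3, numpy 2.4.6, matplotlib 3.10.9 and scipy 1.17.1.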

Additional observations from a re-analysis of the deposited data

How the results depend on the processing

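Calls by range depended on which libraries were in the fit and on the scaling. The number of steady members was 2, and it was 4 with libraries scaled to the table total, where Ccl6 and Ccl5 joined, and 1 with thresholds of 1.5-fold and 3-fold, where Ccl9 alone was left; leaving out 1 mouse gave 3 to 4. Scaling to the table total moved the median of all genes by -0.20 and 0.19 log2 units in mice 1 and 2, and gave Ccl9 a range of 0.85. The number of varying members was 5 and ranged from 2 to 5 when 1 mouse was left out, and the number of these with the same order of mice was 4 and ranged from 2 to 5. Leaving out a mouse can only shrink a range, and with 2 libraries only 2 orders exist, so the count with the same order can grow. Leaving out 1 mouse gave 3002 to 3236 steady genes in the table (main 1393); without mouse 2 there were 5623 varying genes (main 8539). Thresholds of 1.5-fold and 3-fold gave 645 steady genes, and a minimum mean of 1000 gave 2337 varying genes. Of 8 neighbouring pairs in the order by undivided level, 5 kept their order per kb of exon. The share of reads of the steady pair was 0.0650% of all reads and 0.0733% without mitochondrial transcripts. The pseudocounts of 0.1 and 10, size factors recomputed from these libraries, trimmed means of M values (added after the data were seen, in place of a planned package that was not run) and no minimum kept the same 2 steady and 5 varying members. No paired analysis was possible because there is a single group. Counting error is large for Ccl7 in mice 1 and 2 and for Ccl8 in mouse 2, which rest on 6 reads or fewer.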
